A study of Mus musculus with 12 samples.

Results

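Liver transcripts of hCAR/hPXR mice given CITCO were set beside those of WT mice given the same compound, across whole functional classes of genes. The members were the 6 libraries that the sample labels assign to these groups, 3 of each, out of 12 libraries in the series. All mice were adult males, injected intraperitoneally with vehicle or compound once a day for 4 days and killed on day 5, and CITCO was dosed at 10 mg/kg. The hCAR/hPXR mice carry human CAR and human PXR in place of both mouse receptors, on a C57BL/6NTac background according to the methods, which name no strain for the WT mice. The other libraries came from WT mice given corn oil and from Car KO/hPXR mice, which lack Car and carry human PXR, given CITCO (3 libraries each). The series holds no hCAR/hPXR library without CITCO, so genotype and the response to CITCO cannot be told apart in the comparison. Reads came from transcript ends of whole liver tissue, where fewer cells of a type and less RNA per cell cannot be told apart.

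CAR (gene Nr1i3) and PXR (gene Nr1i2) are nuclear receptors of the hepatocyte that sense drugs and other foreign compounds. Once activated they pair with RXR, bind DNA and raise the transcription of enzymes and transporters that oxidise, conjugate and export such compounds, and they also touch on bile acid, lipid and glucose metabolism. CITCO is known as an activator of human CAR and a weak one of mouse CAR.

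The libraries held 1577702, 1654436 and 1370330 counts in the WT CITCO group and 2012805, 1726056 and 1167008 in the hCAR/hPXR group. The floor used for low genes, 3 counts, equals from 1.55 to 2.502 CPM (counts scaled to a common library size with TMM factors) in these libraries, so that little is known of genes near that level. WT CITCO replicate 3 stood apart from the other WT CITCO libraries. Saa1, an acute phase protein picked here after its values were seen, had 3578, 2644 and 111 counts in WT CITCO replicates 1 to 3, against 12672, 1858 and 2194 in hCAR/hPXR mice. On the leading principal component of all genes tested, which held 15.2% of the variance, that library lay at -7.66 and the other WT CITCO libraries at 13.6 and 16.0. The hCAR/hPXR libraries lay at 24.3, 12.2 and 28.1 on it. By correlation of log CPM hCAR/hPXR replicate 3 was also the farthest of its group, at 0.933 and 0.929 with replicates 1 and 2, which had 0.946 with each other, and for WT CITCO replicate 3 the values were 0.935 and 0.926 against 0.946. Values without WT CITCO replicate 3 are therefore given beside some of the results.

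Enough counts for a test were held by 8594 of 51912 genes, and 35 of them (0.407%) were called, meaning a Benjamini-Hochberg adjusted p-value under 0.05 in edgeR's quasi-likelihood test and a change of more than 1.5-fold. The hCAR/hPXR mice had more of 22 transcripts (0.256%) and less of 13 (0.151%). In none of the 35 did the groups overlap. Over all genes tested, the 3 hCAR/hPXR libraries lay all above the 3 WT libraries in 612 genes (7.12%) and all below in 561 (6.53%), and the median log2 fold change was 0.01. The fold change was positive in 4433 genes (51.6%) and negative in 4161. Counts of class members given below describe a class and were not tested. Members of 39 functional classes made up 1378 distinct genes, 1017 of which were tested, and 28 of the 35 called genes belonged to a class. With all libraries the highest class median was that of the acute phase proteins (0.68) and the lowest that of the Cyp4 P450s (-0.49), and neither kept its place without hCAR/hPXR replicate 1. The plot of class medians shows most classes within a narrow band around the median of all genes, while single members of them changed several-fold.

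**Figure D1:**
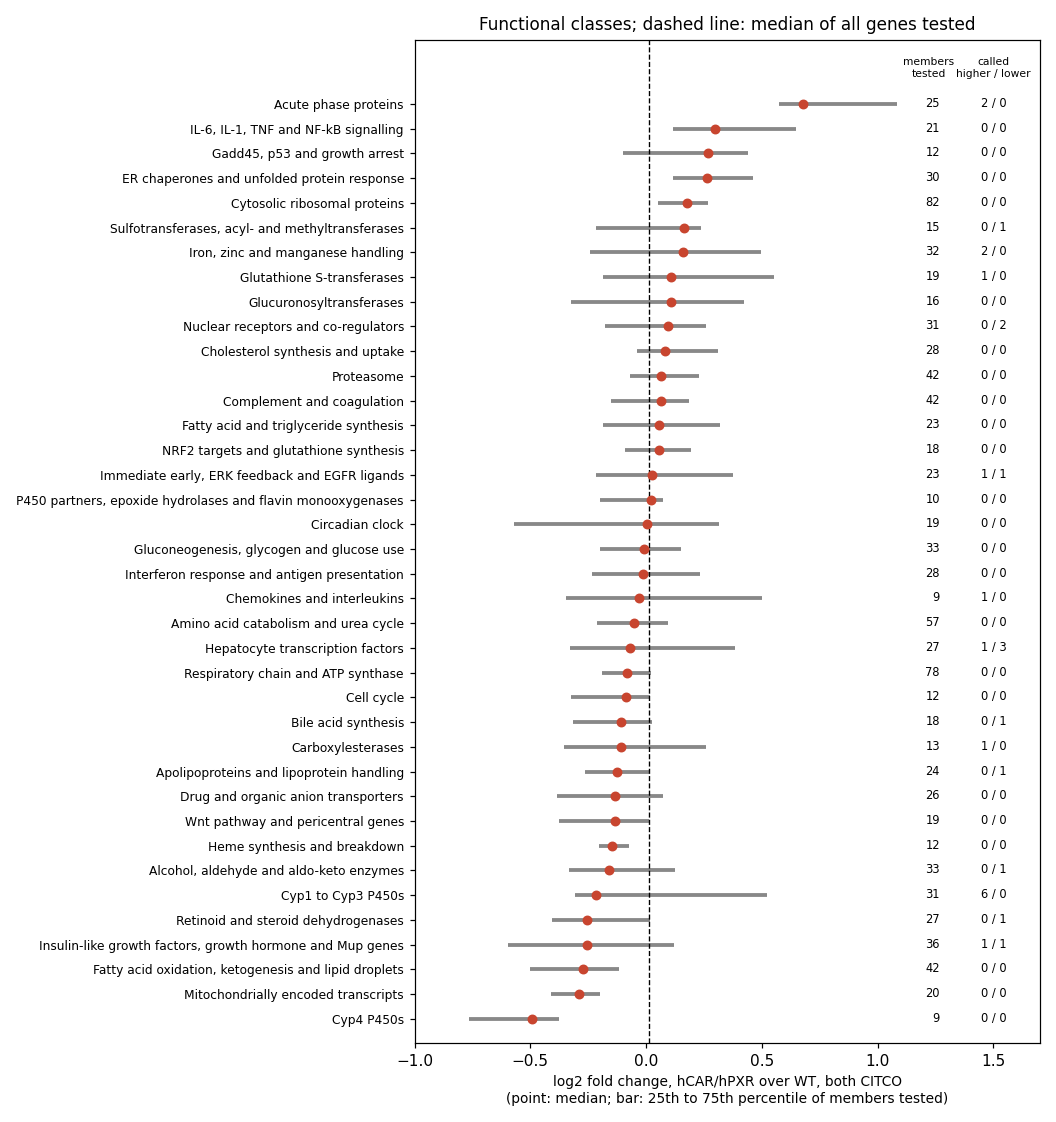
Log2 fold change of hCAR/hPXR over WT mice, both given CITCO, for the 38 functional classes with members tested. Points are class medians, bars span the middle of the members (25 to 75 percent), the dashed line is the median of all genes tested (0.01), and columns give members tested and members called higher and lower; acute phase proteins lie highest (0.68) and Cyp4 P450s lowest (-0.49).

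The genes that the genotype removes had the lowest log2 fold changes of all called genes. Nr1i2 (chr16:38248323-38294824 on GRCm38) had 353 counts over the WT CITCO libraries and 1 over the hCAR/hPXR libraries, a ratio of 389 (95% counting interval 69.3 to 15404). Nr1i3 (chr1:171213970-171220701) had 507 and 8, the latter as 2, 0 and 6 by replicate, a ratio of 69.8 (35.2 to 163). It overlaps Tomm40l, so that reads there are uncertain. With 1 library left out the log2 fold change ran from -9.94 to -7.58 for Nr1i2 (-8.13 with all libraries). For Nr1i3 it ran from -7.53 to -5.42 (-6.04 with all libraries). The counting intervals given here and below cover counting error only. Nr1i2 and Nr1i3 were the 2 members called among 31 tested nuclear receptors and co-regulators, whose median was 0.10. The sign of that median changed when WT CITCO replicate 2 was left out (-0.02). Of the members without a call, the cytosolic chaperone of steroid receptors Hsp90ab1, the most abundant of the class, lay at 695, 651 and 393 CPM in WT and 701, 774 and 894 CPM in hCAR/hPXR mice (log2 fold change 0.44, adjusted p = 0.490, edgeR). Without WT CITCO replicate 3 its log2 fold change was 0.22.

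P450s of families 1 to 3 oxidise drugs, steroids and fatty acids. Of 59 members 31 were tested, 6 were called higher and 0 lower. The groups did not overlap in 15 members, 7 (22.6%) above and 8 (25.8%) below, against 7.12% and 6.53% of all genes tested. The class median was -0.22 (-0.07 without hCAR/hPXR replicate 3 and -0.15 without WT CITCO replicate 3). The class was thus split: 6 members rose, from 1.17 to 6.05 on the log2 scale, while 21 of 31 had a negative fold change and none of these was called. Cyp2b10, the classical target of CAR, had 2, 6 and 2 counts in WT and 281, 288 and 184 in hCAR/hPXR mice. It was close to absent from every WT library and well counted in every hCAR/hPXR library, a ratio of 68.3 (95% counting interval 37.0 to 143). Its log2 fold change of 6.05 went from 5.75 to 6.75 with 1 library left out. Cyp2c55, a fatty acid hydroxylase of the Cyp2c family (chr19:39007019-39042693), had 1, 4 and 0 counts in WT and 33, 46 and 31 in hCAR/hPXR mice. That is a ratio of 19.97 (8.30 to 62.7), with a log2 fold change of 4.25 ± 0.78 (SE) and an adjusted p of 0.0149 by edgeR. The call of Cyp2c55 ended without WT CITCO replicate 1 or 3 and without hCAR/hPXR replicate 2 or 3 (adjusted p up to 0.109, edgeR), and its log2 fold change ran from 3.71 to 5.78 with 1 library left out.

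Cyp2c29 and Cyp3a11, which hydroxylate steroids and many drugs, were the called P450s with the highest levels. Cyp2c29 lay at 850.4, 689 and 968 CPM in WT and at 3582, 2699 and 3244 CPM in hCAR/hPXR mice (log2 fold change 1.93 ± 0.22, SE). Cyp3a11 lay at 756, 811 and 1121 CPM in WT and at 3865, 3531 and 3488 CPM in hCAR/hPXR mice (2.02 ± 0.26). For both genes the lowest hCAR/hPXR library was more than double the highest WT library. In Car KO/hPXR mice Cyp2c29 lay at 647, 601 and 609 CPM, below the WT CITCO libraries, whereas Cyp3a11 lay at 1358, 2423 and 1551 CPM, between WT and hCAR/hPXR mice. Cyp3a25 and Cyp3a59 were called too, with log2 fold changes of 1.17 ± 0.21 and 2.43 ± 0.47. Their calls each ended without WT CITCO replicate 1, WT CITCO replicate 2 or hCAR/hPXR replicate 1, and that of Cyp3a59 also without WT CITCO replicate 3 or hCAR/hPXR replicate 2 (adjusted p up to 0.163, edgeR). The Cyp3a genes are near-identical and the counting can divide reads between them, so their single values are uncertain. Summed over the 7 Cyp3a genes the level was 1157, 1277 and 1662 CPM in WT and 4971, 4463 and 4482 CPM in hCAR/hPXR mice, a ratio of means of 3.40. The 15 Cyp2c genes summed to 3293, 3101 and 3552 CPM in WT and 5404, 5037 and 5209.7 CPM in hCAR/hPXR mice, a ratio of 1.57 that came with members on either side, from Cyp2c38 (log2 fold change -1.73, not called, named after its value was seen) to Cyp2c55. Cyp2e1, the most abundant P450 of the WT CITCO mice and an ethanol oxidising enzyme of pericentral hepatocytes, lay at 2337, 2517 and 3040.0 CPM in WT and 2293, 2122 and 1225 CPM in hCAR/hPXR mice. Its hCAR/hPXR libraries were all below the WT libraries, by a small step in replicates 1 and 2 and a larger one in replicate 3, and it was not called (adjusted p = 0.543, edgeR).

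Sequences upstream of called higher genes were searched for AGGTCA and AGTTCA, on either strand, since nuclear receptors bind pairs of such hexamers. Of the 22 genes 19 had a promoter window in RefSeq, the 250 bases before the start. AGGTCA was found in 7 windows (Ces2a, Cyp2c29, Cyp3a11, Cyp3a25, Cyp3a59, Gdf15 and Saa4) and AGTTCA in 1 of those 7 (Cyp3a11). Of all 32851 windows of this length 14.02% hold AGGTCA, 11.8% AGTTCA and 24.2% either. The stretches of the P450s with the firmest calls are shown, because the calls of these genes held in every fit, read 5' to 3' on the strand of the gene and ended where an annotated exon of the gene begins. They lie on GRCm38.p6 at chr7:25897408-25897619 (plus strand), chr19:39286835-39287073 (plus strand, inside an intron of a longer annotated transcript) and chr5:145879965-145880104 (minus strand). Capitals mark the hexamers as read on either strand. The letters searched for do not occur in the Cyp2b10 window, and a match describes the sequence alone.
Cyp2b10: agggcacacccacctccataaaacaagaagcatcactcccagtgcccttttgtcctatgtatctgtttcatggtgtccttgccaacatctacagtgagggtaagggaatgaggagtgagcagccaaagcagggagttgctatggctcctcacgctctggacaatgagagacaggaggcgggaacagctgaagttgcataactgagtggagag
Cyp2c29: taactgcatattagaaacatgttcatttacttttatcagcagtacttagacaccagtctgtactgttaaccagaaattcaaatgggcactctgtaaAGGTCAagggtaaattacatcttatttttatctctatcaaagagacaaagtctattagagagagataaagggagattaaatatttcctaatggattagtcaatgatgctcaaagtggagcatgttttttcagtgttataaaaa
Cyp3a11: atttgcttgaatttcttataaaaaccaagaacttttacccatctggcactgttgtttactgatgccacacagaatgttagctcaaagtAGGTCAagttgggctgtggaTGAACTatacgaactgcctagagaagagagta

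Other enzymes that work beside these P450s had fewer calls. The 9 tested Cyp4 P450s, fatty acid omega-hydroxylases, had no call, yet all 9 had a negative fold change (median -0.49). Of these 4 (44.4%) lay below WT in every library, against 6.53% of all genes tested. Cyp4a10 lay at 75.2, 80.2 and 158 CPM in WT and 38.3, 27.2 and 34.2 CPM in hCAR/hPXR mice, and Cyp4a14 at 105, 40.1 and 264 CPM and 40.9, 27.8 and 33.4 CPM. The groups were apart for Cyp4a10 and overlapped for Cyp4a14, where WT CITCO replicate 2 lay just below hCAR/hPXR replicate 1. Neither passed the test (log2 fold changes -1.64 and -1.99, adjusted p = 0.132 and 0.157, edgeR). Without WT CITCO replicate 3, the highest library for both, the values were -1.23 and -1.10, and without WT CITCO replicate 2 Cyp4a14 was called (-2.44, adjusted p = 0.0230, edgeR). The 8 Cyp4a genes together summed to 937, 1535 and 1156 CPM in WT and 775, 605 and 676 CPM in hCAR/hPXR mice. Among P450 partners, epoxide hydrolases and flavin monooxygenases 10 members were tested and 0 called, with a median of 0.02 whose sign changed in 9 of the alternative fits. Por, the reductase that hands electrons to every microsomal P450, lay at 354, 241 and 286 CPM in WT and at 412, 494 and 325 CPM in hCAR/hPXR mice. One hCAR/hPXR library fell within the WT range, and the log2 fold change of 0.48 was not called (adjusted p = 0.365, edgeR).

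Carboxylesterases cleave ester and amide drugs, and 1 of 13 tested was called. Ces2a (chr8:104734003-104741634) lay at 174, 171 and 177 CPM in WT and at 305, 481 and 318 CPM in hCAR/hPXR mice. The WT libraries were tightly grouped and the hCAR/hPXR libraries all above them, with replicate 2 highest (log2 fold change 1.08 ± 0.20, adjusted p = 0.0138, edgeR). This call ended without any 1 of the WT CITCO libraries or without hCAR/hPXR replicate 2 (adjusted p up to 0.0937, edgeR). In contrast to Ces2a, its relative Ces2e lay at 170.0, 170.1 and 217 CPM in WT and 136, 137 and 126 CPM in hCAR/hPXR mice, below WT in every library but not called. Ces3b had the same order, at 558, 689 and 427 CPM in WT and 352, 414 and 298 CPM in hCAR/hPXR mice, and was called by DESeq2's Wald test (adjusted p = 0.0346) but not by edgeR. The most abundant member Ces3a overlapped between groups, and the class median was -0.11.

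Among 33 tested alcohol, aldehyde and aldo-keto enzymes 10 (30.3%) lay below and 2 (6.06%) above WT in every library, and 1 was called. Over all genes tested these shares were 6.53% below and 7.12% above. Aldh3a2, which oxidises fatty aldehydes, fell from 142, 124 and 169 CPM in WT to 74.1, 74.1 and 48.4 CPM in hCAR/hPXR mice. No hCAR/hPXR library came near the WT range (log2 fold change -1.13 ± 0.21, adjusted p = 0.0185, edgeR), although the call ended without WT CITCO replicate 1 or 3 or hCAR/hPXR replicate 3 (adjusted p up to 0.117, edgeR). Aox3, an aldehyde oxidase, and Akr1c19 were also below WT in every library without a call (-0.63 and -0.65). Of 27 tested retinoid and steroid dehydrogenases 9 (33.3%) lay below and 2 (7.41%) above WT, with a median of -0.25 and 1 call. Rdh16, which oxidises retinol and 3-alpha-hydroxysteroids, lay at 38.92, 44.3 and 69.7 CPM in WT and 25.4, 26.03 and 13.3 CPM in hCAR/hPXR mice. Its hCAR/hPXR libraries were lower than all 9 others of the series. The change in Rdh16 was -1.20 ± 0.25 (adjusted p = 0.0433, edgeR). Of the fits that leave out 1 of the 6 libraries only that without WT CITCO replicate 1 kept that call (adjusted p up to 0.214, edgeR), and it was also lost with the replicate block and with these 6 libraries fitted alone.

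**Figure D2:**
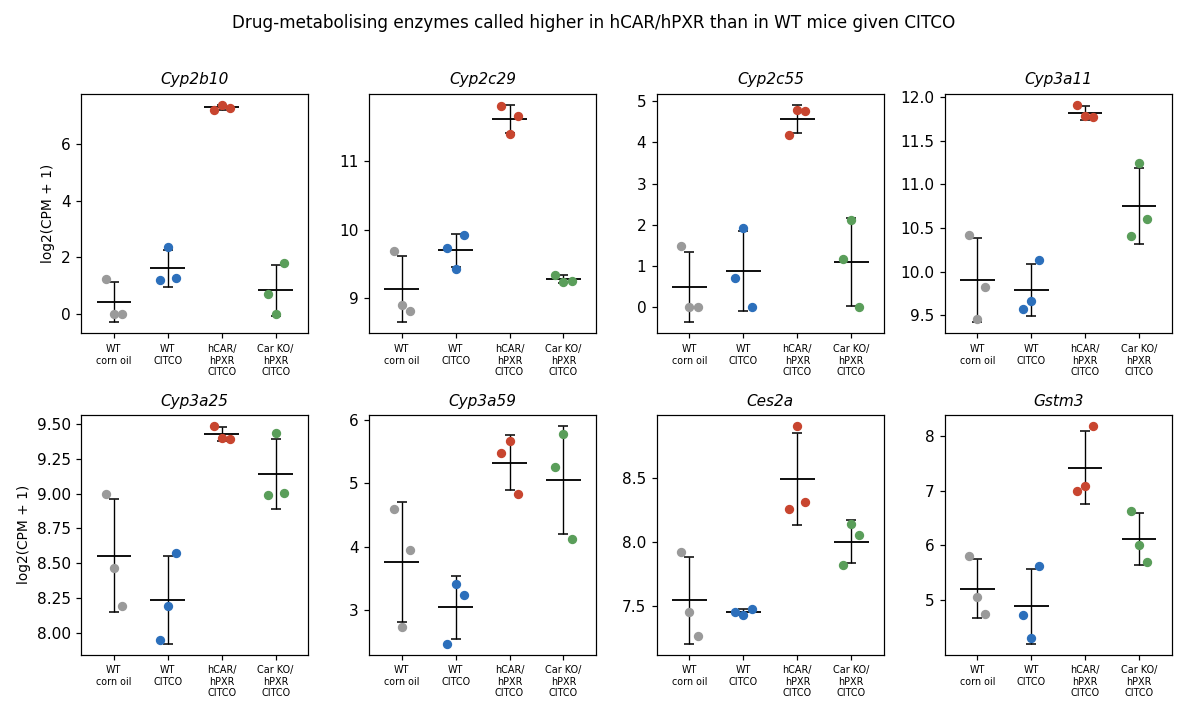
Normalised expression, as log2 of CPM + 1, of 8 drug-metabolising genes in the 12 libraries, by group; each point is a library, the line is the mean and the bar the SD over 3 libraries. For each gene all hCAR/hPXR libraries lie above all WT CITCO libraries, as for Ces2a at 305, 481 and 318 against 174, 171 and 177 CPM.

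Conjugating enzymes were mixed. Of 19 glutathione S-transferases, which attach glutathione to reactive compounds, 1 was called, and the median was 0.11. In every library 4 (21.1%) lay above and 2 (10.5%) below WT, against 7.12% and 6.53% of all genes tested. Gstm3 (chr3:107963696-107969283) lay at 25.3, 18.7 and 48.5 CPM in WT and at 126, 135 and 291 CPM in hCAR/hPXR mice. Every hCAR/hPXR library was more than double the highest WT library, with replicate 3 far above the others (log2 fold change 2.57 ± 0.38, adjusted p = 0.00205, edgeR), and the call held with any 1 library left out. The same library was highest for Gstm1 (1868, 1491 and 4175 CPM in hCAR/hPXR against 1079, 1032 and 1506 CPM in WT mice), which overlapped between groups and was not called with all libraries, but was without hCAR/hPXR replicate 2 (adjusted p = 0.0457, edgeR). Gstm genes are close relatives and share reads, and their sum of 7 genes was 1371, 1278 and 1873 CPM in WT and 2336, 1962 and 4870.2 CPM in hCAR/hPXR mice. Gsta1 had 0, 9 and 0 counts in WT and 20, 28 and 44 in hCAR/hPXR mice, a ratio of 9.28 (95% counting interval 4.68 to 20.9), and was not called (adjusted p = 0.172, edgeR). All WT counts of Gsta1 came from WT CITCO replicate 2, so that the ratio rests on it, and without that library, with WT at 0, Gsta1 was called (adjusted p = 0.0339, edgeR). The most abundant member Gstp1 overlapped between groups. Without WT CITCO replicate 3 the class median was 0.33.

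Glucuronosyltransferases had 16 members tested and 0 called. WT was exceeded in every library by 2 (12.5%), and 3 (18.75%) lay below it, against 7.12% and 6.53% of all genes tested. The class median of 0.11 was the same with Ugt1a1 at its bound, and it turned negative without WT CITCO replicate 2 (-0.06). Ugt1a1, the bilirubin conjugating enzyme, was at 0 in all WT CITCO libraries and at 0, 79 and 115 counts in hCAR/hPXR mice, at least 58.7-fold higher against a floor of 3 counts over the group, and was not called (adjusted p = 0.446, edgeR). DESeq2's Wald test called Ugt1a1 (adjusted p = 5.32e-05), with 1 hCAR/hPXR library at 0 like WT. The Ugt1a genes share their last exons, so the division of reads among them is uncertain, and their sum was 1365, 1355 and 1848 CPM in WT and 1675, 2015 and 1697 CPM in hCAR/hPXR mice, overlapping between groups. Ugt2b35 lay above WT in every library (134, 111 and 169 against 189, 193 and 181 CPM) and Ugt3a2 below (108, 125 and 146 against 91.7, 85.6 and 97.6 CPM), neither called.

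Sulfotransferases, acyltransferases and methyltransferases had 1 call among 15. Nat8, an acetyltransferase of cysteine conjugates, fell from 61.6, 53.9 and 47.8 CPM in WT to 20.2, 28.9 and 25.02 CPM in hCAR/hPXR mice. The groups were well apart (log2 fold change -1.14 ± 0.21, adjusted p = 0.0185, edgeR). Car KO/hPXR mice were low as well, at 30.5, 32.6 and 26.3 CPM, while WT corn oil mice were at 55.1, 65.6 and 46.5 CPM. The call of Nat8 ended without WT CITCO replicate 1 or 2 or hCAR/hPXR replicate 1 or 3 (adjusted p up to 0.115, edgeR). Nnmt, which methylates nicotinamide, lay above WT in every library (159.6, 169 and 73.9 against 241, 264 and 270.2 CPM) and was not called.

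Of 26 drug and organic anion transporters tested 0 were called, and 6 (23.1%) lay below and 1 (3.85%) above WT in every library. Of all genes tested 6.53% lay below and 7.12% above. The class median was -0.13. Leaving out hCAR/hPXR replicate 2 gave -0.22 and leaving out WT CITCO replicate 3 gave -0.06. The uptake carrier Slco1a1 lay at 511, 592 and 649 CPM in WT and 383, 426 and 379 CPM in hCAR/hPXR mice, and the exporter Slc47a1 at 140.1, 161 and 167 CPM and 104, 101 and 103 CPM. For each the groups were apart, yet edgeR gave adjusted p-values of only 0.208 and 0.163. Slco1b2, the most abundant transporter, overlapped between groups. The 12 heme synthesis and breakdown genes, all tested, had 0 calls and a median of -0.15, which went from -0.27 without hCAR/hPXR replicate 1 to -0.04 without hCAR/hPXR replicate 2. Alas1, which sets the pace of heme synthesis, was already high in WT mice given CITCO (477, 268 and 488 CPM, against 375, 418 and 245 CPM in hCAR/hPXR mice). In WT corn oil mice it was at 186, 51.5 and 129 CPM. The 18 genes of the class of NRF2 targets and glutathione synthesis had 0 calls and a median of 0.05. In the class 3 (16.7%) lay above WT in every library: Osgin1, Srxn1 and Keap1, which is the inhibitor of NRF2 (log2 fold changes 0.72, 0.66 and 0.58). In the same class 1 member (5.56%) lay below WT in every library, and the lowest log2 fold change was -0.83.

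Hepatocyte transcription factors had 4 calls among 27 tested, 1 higher and 3 lower. Hhex (chr19:37434810-37440731), a homeobox factor of liver development, fell from 135, 169 and 89.3 CPM in WT to 25.9, 17.9 and 35.9 CPM in hCAR/hPXR mice. Onecut1 (chr9:74861921-74891781), which acts upstream of many hepatocyte genes, fell from 144, 113 and 90.1 CPM to 37.3, 19.7 and 26.7 CPM. Foxa2, a pioneer factor, fell from 53.8, 53.2 and 41.5 CPM to 23.3, 19.7 and 19.2 CPM. In all 3 genes WT CITCO replicate 3 was the lowest WT library, and it still lay well above the highest hCAR/hPXR library. The log2 fold changes were -2.33 ± 0.37 for Hhex, -2.04 ± 0.31 for Onecut1 and -1.25 ± 0.22 for Foxa2. The call of Foxa2 ended without WT CITCO replicate 1 (adjusted p = 0.0708, edgeR), and those of Hhex and Onecut1 held with any 1 library left out. Prox1 (chr1:190118035-190170714), a homeobox factor that restrains Cyp7a1 transcription in hepatocytes, rose from 145, 162 and 172 CPM to 384, 386 and 309 CPM (1.18 ± 0.20, adjusted p = 0.00902, edgeR). Its call ended without WT CITCO replicate 1 (adjusted p = 0.0822, edgeR). Zbtb20, the most abundant factor, lay slightly above WT in every library and was not called (0.42).

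For the factors that fell, the level in WT mice given CITCO was itself above that in WT mice given corn oil. In corn oil mice Hhex lay at 42.1, 48.7 and 23.5 CPM, Onecut1 at 7.61, 7.76 and 23.5 CPM and Foxa2 at 25.5, 22.6 and 19.9 CPM. The hCAR/hPXR libraries thus lay near the corn oil libraries for Foxa2 and Hhex, and for Onecut1 above the lower corn oil libraries with replicate 2 under the highest. Both comparisons use the same WT CITCO libraries, so that a high WT CITCO level enters each with opposite sign. Against corn oil, WT CITCO mice had log2 differences of 1.78 for Hhex, 3.17 for Onecut1 and 1.12 for Foxa2. Prox1 had the reverse order, at 188, 343 and 321 CPM in corn oil mice, within or above which range all hCAR/hPXR libraries lay.

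Circadian clock genes had 0 calls among 19 and a median near 0 whose sign changed in 10 of the alternative fits. Dbp, a clock output factor, lay at 98.6, 96.8 and 113 CPM in WT and 43.0, 73.5 and 50.9 CPM in hCAR/hPXR mice, without overlap (log2 fold change -0.88, adjusted p = 0.0846, edgeR, and 0.0242, a call, by DESeq2's Wald test). Without hCAR/hPXR replicate 2 edgeR also called Dbp (adjusted p = 0.0300). Hlf, of the same family, was also below WT in every library (-0.68), while the repressor Nr1d1 (0.80) and the abundant Tef (-0.26) overlapped.

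Growth hormone and insulin-like growth factor genes held large changes in opposite directions. Among 36 tested, Mup genes included, 1 was called in each direction. In every library 6 (16.7%) lay below and 3 (8.33%) above WT, against 6.53% and 7.12% of all genes tested. The class median of -0.26 turned positive (0.08) without WT CITCO replicate 2. Cish (chr9:107296026-107302784), a feedback inhibitor induced by growth hormone through STAT5, had 86, 62 and 58 counts in WT and 8, 5 and 4 in hCAR/hPXR mice. All hCAR/hPXR libraries were near the count floor, whereas no WT library was (log2 fold change -3.71 ± 0.45, adjusted p = 2.88e-04, edgeR). Corn oil mice were as low, at 4.93, 2.12 and 1.21 CPM, and Car KO/hPXR mice lay between at 30.5, 9.18 and 12.3 CPM. Igfbp1 (chr11:7197782-7202546), a secreted binder of insulin-like growth factors, rose from 27.2, 19.4 and 61.9 CPM in WT to 210.3, 193 and 314 CPM in hCAR/hPXR mice (2.72 ± 0.37). Every hCAR/hPXR library was above all 9 others of the series, and without WT CITCO replicate 3 the log2 fold change was 3.34. Igf1 itself lay at 853, 938 and 966 CPM in WT and 711, 573 and 530.5 CPM in hCAR/hPXR mice, apart but not called by edgeR (-0.60, adjusted p = 0.138), whereas DESeq2's Wald test called it (adjusted p = 4.10e-04). The major urinary proteins, near-identical copies, summed to 146633, 186079 and 65441 CPM in WT and 168094, 126649 and 57503 CPM in hCAR/hPXR mice. Replicate 3 was the lowest of its group in both, and the groups overlapped.

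Immediate early genes, ERK feedback genes and EGFR ligands had 1 call in each direction among 23 tested, with a median of 0.03. That median went from -0.03 without hCAR/hPXR replicate 1 to 0.18 without WT CITCO replicate 1. Dusp6, the phosphatase that shuts off ERK, rose from 42.2, 32.5 and 37.3 CPM in WT to 92.7, 87.4 and 97.6 CPM in hCAR/hPXR mice. The libraries within each group lay close together and the groups far apart (log2 fold change 1.31 ± 0.26, adjusted p = 0.0317, edgeR). Even so the call ended with any 1 of the 6 libraries left out, at adjusted p-values from 0.0590 to 0.193 (edgeR). Phlda1, a growth-factor-responsive gene, fell from 209.5, 199 and 97.1 CPM to 46.6, 42.2 and 45.9 CPM (-1.91 ± 0.33). WT CITCO replicate 3 held about the middle between the other WT libraries and the hCAR/hPXR libraries, and without it the value was -2.19. The call ended without WT CITCO replicate 1 or hCAR/hPXR replicate 2 or 3 (adjusted p up to 0.0768, edgeR). In corn oil mice Phlda1 lay at 81.1, 38.1 and 27.2 CPM. Egfr, a receptor whose signalling holds CAR inactive, and the early factor Junb lay above WT in every library (0.73 and 1.18), neither called. With 1 library left out the value fell as low as 0.55 for Egfr and 0.61 for Junb.

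**Figure D3:**
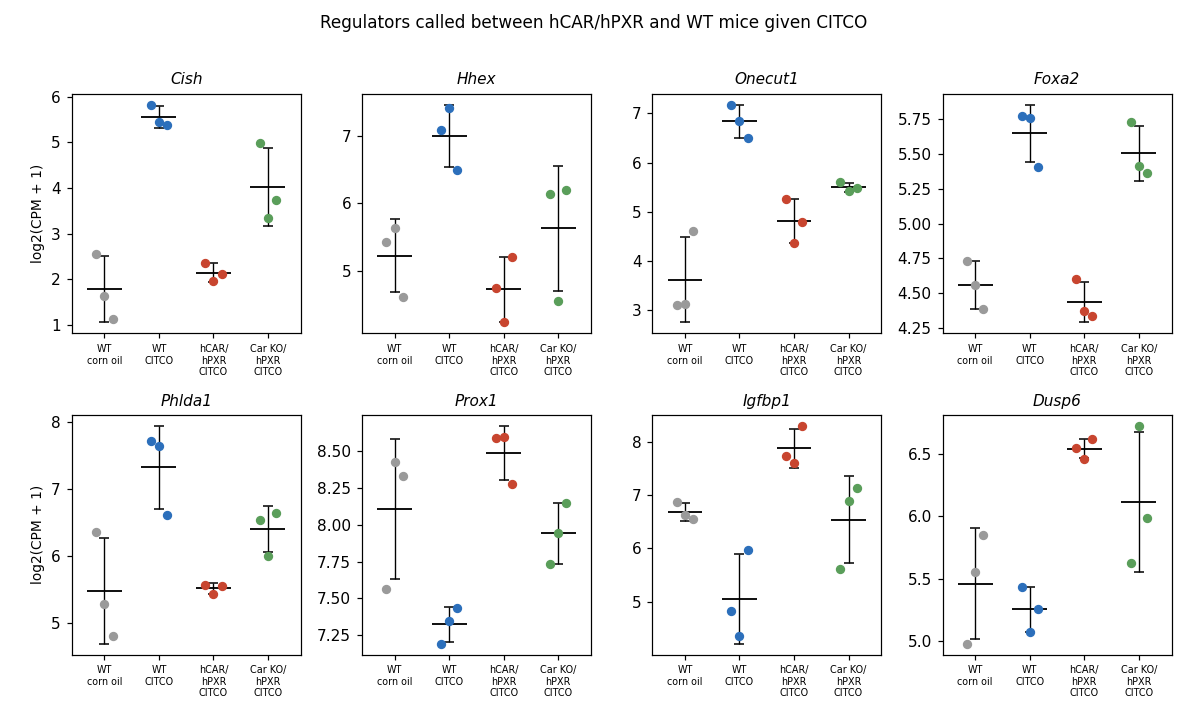
Normalised expression, as log2 of CPM + 1, of 8 called regulators in the 12 libraries, by group; points are libraries, lines means and bars the SD over 3 libraries. Cish, Hhex, Onecut1, Foxa2 and Phlda1 are on average highest in WT mice given CITCO, and Prox1, Igfbp1 and Dusp6 are higher in hCAR/hPXR than in WT mice given CITCO, as for Igfbp1 at 210.3, 193 and 314 against 27.2, 19.4 and 61.9 CPM.

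Stress and proliferation genes gave no call. Of 12 tested Gadd45, p53 and growth arrest genes 3 (25%, against 6.53% of all genes tested) lay below and 0 above WT. A positive fold change was found in 8 of 12 (median 0.27, and 0.11 without WT CITCO replicate 3). Gadd45g, a growth arrest gene, had 35, 51 and 9 counts in WT and 7, 3 and 0 in hCAR/hPXR mice, a ratio of 10.5 in favour of WT (95% counting interval 5.45 to 22.5), and missed the threshold (adjusted p = 0.0664, edgeR). DESeq2's Wald test called it (adjusted p = 0.0124), as did edgeR without WT CITCO replicate 3 (adjusted p = 0.0213). WT corn oil mice had 15, 3 and 1 counts of Gadd45g. The log2 difference of WT CITCO over corn oil mice was 2.63, not called (adjusted p = 0.168, edgeR). Gadd45b, the member most often tied to CAR, was too low to be tested, at 1, 0 and 1 counts in WT and 4, 2 and 2 in hCAR/hPXR mice. Cell cycle genes had 12 of 34 members tested and a median of -0.09, which turned to 0.01 without hCAR/hPXR replicate 1. It was -0.21 without hCAR/hPXR replicate 3 and -0.19 without WT CITCO replicate 3. The replication clamp Pcna lay at 26, 19 and 31 counts in WT and 34, 21 and 11 in hCAR/hPXR mice, and cyclin gene Ccnd1 at 75, 74 and 85 and 75, 93 and 78 counts. Both overlapped, and Mki67, a marker of dividing cells, was untested at 2, 1 and 0 against 5, 2 and 2 counts. Cdk6 lay below WT in every library (-0.61, not called). Among 19 tested Wnt pathway and pericentral genes 0 were called (median -0.14). Fzd4, a Wnt receptor, overlapped between groups (-1.08) and was called without WT CITCO replicate 3 (-1.41, adjusted p = 0.0140, edgeR). Glul, the glutamine synthetase of the pericentral ring, lay at 1004, 916 and 1157 CPM in WT and 1169, 1285 and 629 CPM in hCAR/hPXR mice. The 6 imprinted Dlk1-Meg3 and H19-Igf2 genes were all too low to test, with Meg3 at 1, 4 and 3 counts in WT and 6, 0 and 3 in hCAR/hPXR mice.

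Acute phase proteins, which hepatocytes secrete in inflammation, had the highest class median with all libraries, an order that did not hold without hCAR/hPXR replicate 1. Of 26 members 25 were tested, 22 had a positive fold change and the median was 0.68. In every library 9 (36%, against 7.12% of all genes tested) lay above WT and 0 below. Only 2 were called. Saa4, the constitutive serum amyloid, rose from 313, 391 and 249.8 CPM in WT to 884, 635 and 499 CPM in hCAR/hPXR mice (log2 fold change 1.08 ± 0.23, adjusted p = 0.0484, edgeR). Serpina3m, a protease inhibitor, rose from 277, 248 and 322 CPM to 476, 474 and 469.6 CPM (0.74 ± 0.15, adjusted p = 0.0370, edgeR). Both groups of libraries were apart for each gene, most tightly for Serpina3m in hCAR/hPXR mice. Each call ended in 5 of the 6 fits that leave out a library, all but that without hCAR/hPXR replicate 3 for Saa4 and all but that without WT CITCO replicate 3 for Serpina3m (adjusted p up to 0.277, edgeR). Both calls were also lost with the 6 libraries fitted alone, and that of Saa4 with the size factors of DESeq2. Serpina3m was as high in Car KO/hPXR mice (497, 438 and 431 CPM), whereas Saa4 was not (268, 255 and 186 CPM). Crp lay above WT in every library (380.1, 313 and 362 against 734, 486 and 545 CPM) with an adjusted p of 0.0846 in edgeR, and DESeq2's Wald test called it (adjusted p = 0.00732). The level of the class depended on single libraries: its median was 0.38 without hCAR/hPXR replicate 1, 0.86 without hCAR/hPXR replicate 2 and 0.59 without WT CITCO replicate 3. The 4 Saa genes, near-identical in part, summed to 3630.1, 2728 and 360.2 CPM in WT and 9696, 2120.3 and 2999 CPM in hCAR/hPXR mice, while corn oil mice had 410.3, 368 and 202 CPM. The most abundant acute phase gene Serpina3k overlapped between groups (-0.12).

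Genes of inflammatory signalling and chemokines had 1 call by edgeR. Of 21 tested IL-6, IL-1, TNF and NF-kB signalling genes 0 were called, and 6 (28.6%, against 7.12% of all genes tested) lay above and 0 below WT. The median was 0.30, with a range from 0.18 without hCAR/hPXR replicate 1 to 0.52 without WT CITCO replicate 1. Stat3, the factor that carries the IL-6 signal to the acute phase genes, lay at 86.3, 68.5 and 81.6 CPM in WT and 137, 90.8 and 124 CPM in hCAR/hPXR mice (log2 fold change 0.57, adjusted p = 0.282, edgeR). Ltbr, a TNF family receptor, lay at 77.2, 63.6 and 85.8 CPM in WT and 138, 127 and 108 CPM in hCAR/hPXR mice (0.72, adjusted p = 0.0846, edgeR), and was called by DESeq2's Wald test (adjusted p = 0.0339). Neither gene overlapped between the groups, and in both hCAR/hPXR replicate 1 was highest. Only 9 of 39 chemokines and interleukins were tested, and 1 was called. Cxcl1 (chr5:90891241-90893115), which draws neutrophils, rose from 7.14, 15.2 and 11.3 CPM to 67.9, 176 and 91.7 CPM (3.32 ± 0.45, adjusted p = 7.83e-04, edgeR), a change that held with any 1 library left out. Ccl9, another chemokine, lay above WT in every library (0.88), and the interferon-induced Cxcl9 (-1.48) rested on a single WT value of 103 counts in replicate 3.

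Of the neutrophil markers 1 was called. S100a8, a calcium-binding protein of neutrophils, had 8, 6 and 3 counts in WT and 29, 44 and 34 in hCAR/hPXR mice, and was called (log2 fold change 2.54 ± 0.44, adjusted p = 0.00961, edgeR). The 8 markers of that list, of which S100a8 was the most abundant and 2 were tested, summed to 10.4, 7.61 and 4.92 CPM in WT and 35.2, 36.4 and 50.04 CPM in hCAR/hPXR mice. Both tested markers lay above WT in every library, with log2 fold changes of 2.54 for S100a8 and 2.49 for the other, which was not called. In the sum every hCAR/hPXR library was above every WT library, while Mmp8, a granule enzyme of neutrophils, was at 0 in all 6. Car KO/hPXR mice had 8.26, 11.7 and 6.57 CPM. The call of S100a8 ended without WT CITCO replicate 3 or hCAR/hPXR replicate 2 or 3 (adjusted p up to 0.0640, edgeR). The part of neutrophils in the levels of Cxcl1 and the acute phase genes was not tested.

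Complement and coagulation genes had 0 calls among 42, with 7 (16.7%) above and 2 (4.76%) below WT, against 7.12% and 6.53% of all genes tested. The class median of 0.06 turned slightly negative without hCAR/hPXR replicate 1. C4b lay at 1116, 1007 and 884 CPM in WT and 1499.9, 1189 and 1513 CPM in hCAR/hPXR mice, apart but not called (0.48). Of 28 interferon response and antigen presentation genes 0 were called and 0 had an unadjusted p under 0.05. Of these genes 2 (7.14%) lay above and 2 (7.14%) below WT, near the shares of all genes. The light chain B2m, their most abundant member, overlapped between groups.

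Metal handling genes had 2 calls among 32, both metallothioneins, small proteins that bind zinc and copper. Mt1 (chr8:94179082-94180327) lay at 86.9, 43.6 and 91.5 CPM in WT and at 508, 231 and 847 CPM in hCAR/hPXR mice (log2 fold change 2.83 ± 0.58, adjusted p = 0.0363, edgeR). Mt2 lay at 67.5, 21.4 and 52.1 CPM and at 551, 248 and 749 CPM (3.45 ± 0.66, adjusted p = 0.0201, edgeR). In both genes the replicates kept the order 3, 1, 2 in hCAR/hPXR mice, and all exceeded every WT CITCO library. A single corn oil library also reached 242 CPM of Mt1, above hCAR/hPXR replicate 2. Both calls ended in 5 of the 6 fits that leave out a library, and only that without hCAR/hPXR replicate 2 kept them (adjusted p up to 0.219, edgeR). The iron exporter Slc40a1 lay at 125, 243 and 144 CPM in WT and 90.1, 77.5 and 107 CPM in hCAR/hPXR mice, below WT in every library and not called by edgeR (-0.90, adjusted p = 0.103), while DESeq2's Wald test called it (adjusted p = 0.0246). The class median was 0.16, and 0.06 without WT CITCO replicate 2.

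**Figure D4:**
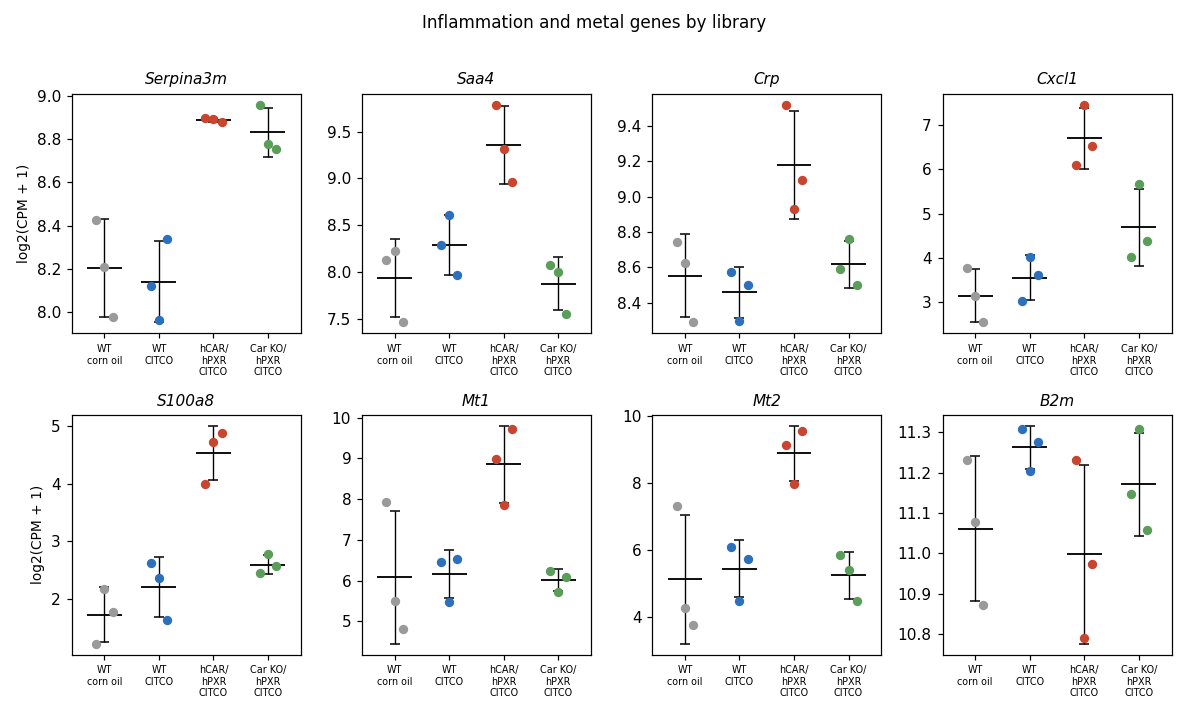
Normalised expression, as log2 of CPM + 1, of 8 inflammation and metal genes in the 12 libraries, by group; points are libraries, lines means and bars the SD over 3 libraries. Hepatic levels in hCAR/hPXR mice lie above all WT CITCO libraries for 7 of the genes, as for Mt1 at 508, 231 and 847 against 86.9, 43.6 and 91.5 CPM, and overlap for B2m.

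Of 42 tested genes of fatty acid oxidation, ketogenesis and lipid droplets 36 had a negative fold change, against 4161 of all 8594 genes tested, and 0 were called by edgeR. In every library 10 (23.8%) lay below WT and 2 (4.76%) above, against 6.53% and 7.12% of all genes tested. The class median was -0.27. Without WT CITCO replicate 3 the median was -0.19, and it stayed negative in every alternative fit. The fatty acid carrier Fabp1, the most abundant member, lay at 3624, 3383 and 4049.6 CPM in WT and 2363, 2622 and 2289.6 CPM in hCAR/hPXR mice. Acsl1, which activates fatty acids, lay at 645, 714 and 704 CPM and 421, 511 and 350.3 CPM. For both the highest hCAR/hPXR library was below the lowest WT library by more than the gap between the closest WT libraries. In that order edgeR gave log2 fold changes of -0.60 ± 0.16 and -0.68 ± 0.17 (adjusted p = 0.172 and 0.118). DESeq2's Wald test called both (adjusted p = 1.14e-05 and 0.00515). Hsd17b11, a lipid droplet dehydrogenase, came nearest to a call by edgeR (-0.78 ± 0.17, adjusted p = 0.0567), and DESeq2's Wald test called it (adjusted p = 0.0119).

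Bile acid synthesis genes had 1 call among 18, and 13 of 18 had a negative fold change (median -0.11). The class median was -0.22 without hCAR/hPXR replicate 2 and -0.07 without WT CITCO replicate 2. Cyp7a1, the rate-limiting enzyme of bile acid synthesis, lay at 98.6, 44.9 and 124 CPM in WT and 24.9, 38.8 and 24.2 CPM in hCAR/hPXR mice (-1.59 ± 0.33, adjusted p = 0.0376, edgeR). The groups were separate, but WT CITCO replicate 2 and hCAR/hPXR replicate 2 lay close to each other. The call ended without WT CITCO replicate 1 or 3 or hCAR/hPXR replicate 1 or 3, in the fit of 6 libraries, with the replicate block and with limma (adjusted p up to 0.182 with a library left out, edgeR). Cyp8b1, which makes cholic acid, lay at 170.0, 230.2 and 350.4 CPM in WT and 96.4, 189 and 123.4 CPM in hCAR/hPXR mice, overlapping in one library and not called. Without hCAR/hPXR replicate 2 Cyp8b1 was called (log2 fold change -1.20, adjusted p = 0.0457, edgeR), and without WT CITCO replicate 3 the value was -0.56.

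Cholesterol synthesis and uptake (28 tested) and fatty acid and triglyceride synthesis (23 tested) had 0 calls, with medians of 0.08 and 0.06 that changed sign when single libraries were left out. Sqle, an early oxygenating step of sterol synthesis, and Insig2, which holds the sterol sensor in the membrane, lay above WT in every library (0.71 and 0.85). Scd1, the main desaturase and most abundant lipogenic gene, ranged from 642 to 2595 CPM in WT and from 1424 to 4596 CPM in hCAR/hPXR mice, with replicate 3 highest in each group. Acss2, which makes acetyl-CoA from acetate, lay at 51.9, 51.9 and 80.2 CPM in WT and 36.3, 42.8 and 40.9 CPM in hCAR/hPXR mice, apart but not called (-0.62). Of 24 apolipoprotein and lipoprotein genes 5 (20.8%, against 6.53% of all genes tested) lay below WT and 0 above (median -0.13). The intracellular Apol7a fell from 77.8, 102 and 102 CPM to 52.8, 42.8 and 36.7 CPM (-1.08 ± 0.21, adjusted p = 0.0201, edgeR). Its groups were apart, and the call ended without WT CITCO replicate 2 or 3 or hCAR/hPXR replicate 2 or 3 (adjusted p up to 0.125, edgeR). Apoe, Apoa4 and Apoc2, which travel on secreted particles, were below WT in every library with log2 fold changes of -0.37, -0.79 and -0.97, none called by edgeR. DESeq2's Wald test called Apoc2 alone of the 3 (adjusted p = 0.0462), as did edgeR without hCAR/hPXR replicate 2 (adjusted p = 0.00475).

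**Figure D5:**
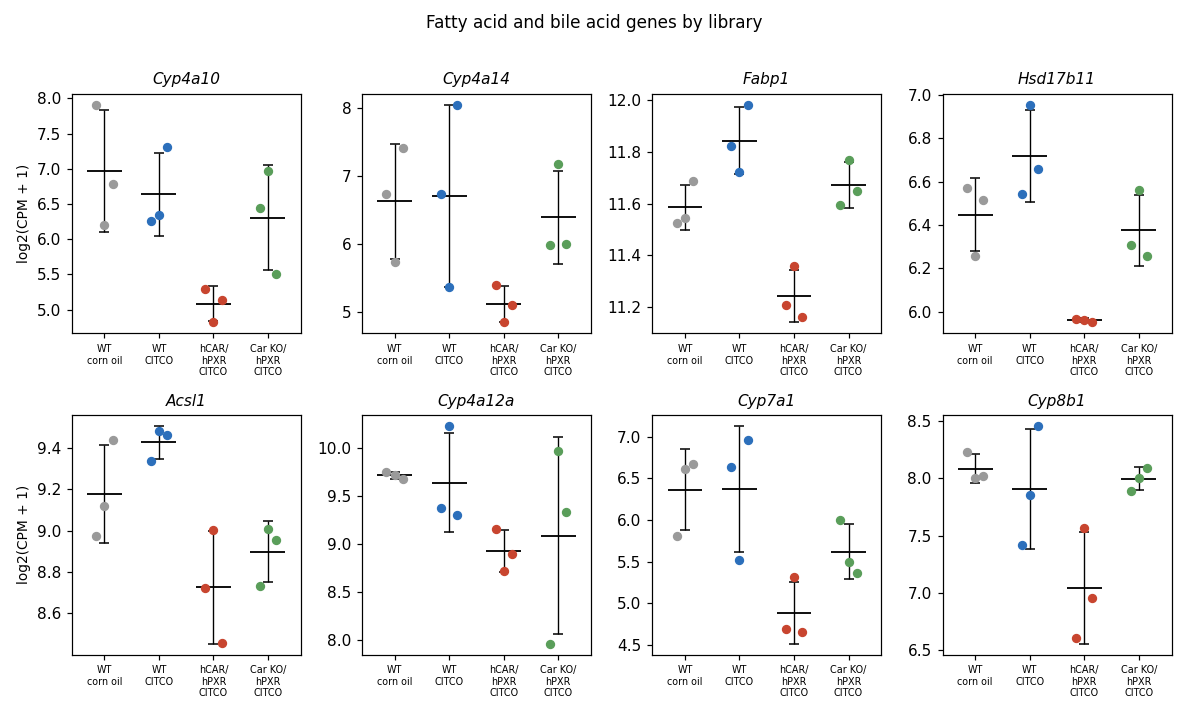
Normalised expression, as log2 of CPM + 1, of 8 fatty acid and bile acid genes in the 12 libraries, by group; points are libraries, lines means and bars the SD over 3 libraries. Cyp7a1 alone of these was called (24.9, 38.8 and 24.2 CPM in hCAR/hPXR against 98.6, 44.9 and 124 CPM in WT mice given CITCO), and Fabp1 and Acsl1 are below WT in every library.

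Glucose and amino acid metabolism had no call by edgeR. Of 33 tested genes of gluconeogenesis, glycogen and glucose use 0 were called and 1 lay above and 1 below WT (3.03% each, against 7.12% and 6.53% of all genes tested). The class median was near 0 (-0.01) and turned to 0.10 without WT CITCO replicate 3. Pck1, the entry enzyme of gluconeogenesis, lay at 1887, 2012 and 1819 CPM in WT and 2067, 2842 and 1445 CPM in hCAR/hPXR mice, and G6pc, its last enzyme, at 48.7, 42.2 and 87.2 CPM and 64.2, 53.2 and 35.0 CPM. Both overlapped. The glucose transporter Slc2a2 was below WT in every library (-0.55, not called). Of 57 tested amino acid and urea cycle genes 0 were called and the median was -0.05. Aadat, an aminotransferase of the kynurenine and lysine pathways, overlapped between groups (-0.89) and was called without WT CITCO replicate 3 (-1.19, adjusted p = 0.0291, edgeR). Bhmt, which remethylates homocysteine, lay at 890.0, 1131 and 1324 CPM in WT and 593, 688 and 723 CPM in hCAR/hPXR mice (-0.74, adjusted p = 0.190, edgeR), and DESeq2's Wald test called it (adjusted p = 0.0239). Car KO/hPXR mice had far more of it, at 2611, 1819 and 1901 CPM, as did corn oil mice at 2520.2, 1557 and 2075 CPM.

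Classes of general cell upkeep had no call by edgeR with all libraries. The 82 tested cytosolic ribosomal proteins had 0 calls and a median of 0.18, with 68 positive fold changes, 18 members above and 1 below WT in every library. Their median was 0.10 without hCAR/hPXR replicate 3. Rplp2, of the ribosomal stalk, lay at 859.5, 691 and 648 CPM in WT and 932, 1064 and 1055 CPM in hCAR/hPXR mice. Of the 30 ER chaperone and unfolded protein response genes 26 had a positive fold change, and 5 (16.7%) lay above and 1 (3.33%) below WT. Hspa5, the chaperone BiP, lay at 1364, 1131 and 711 CPM in WT and 1611, 1946 and 1677 CPM in hCAR/hPXR mice (0.71 ± 0.20, adjusted p = 0.187, edgeR). WT CITCO replicate 3 was lowest for Hspa5, and without it the value was 0.48 and the class median went from 0.26 to 0.10. Vmp1, an ER protein of autophagy, ran against its class, at 209, 227 and 117 CPM in WT and 106, 98.4 and 89.2 CPM in hCAR/hPXR mice (-0.91, adjusted p = 0.101, edgeR). Without WT CITCO replicate 3 it was called (-1.16, adjusted p = 0.00874, edgeR), and DESeq2's Wald test on all libraries called Hspa5 (adjusted p = 0.0380) and Vmp1 (adjusted p = 0.0246).

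The 20 tested transcripts of the mitochondrial genome all had a negative fold change (median -0.29), 4 (20%) lay below WT in every library and 0 were called. That median ranged from -0.44 without WT CITCO replicate 3 to -0.10 without WT CITCO replicate 2. Their sum overlapped between groups, at 104349, 146250 and 112318 CPM in WT and 104057, 94607 and 120559 CPM in hCAR/hPXR mice. Of the 78 tested nuclear genes of the respiratory chain and ATP synthase 8 (10.3%) lay below and 1 (1.28%) above WT, with a median of -0.08 and overlapping sums. Cox5b, a subunit of cytochrome c oxidase, lay at 261, 244 and 355 CPM in WT and 187, 145 and 185 CPM in hCAR/hPXR mice (-0.74 ± 0.18, adjusted p = 0.0954, edgeR), and DESeq2's Wald test called it (adjusted p = 0.0100). Proteasome genes (42 tested) had 0 calls and a median of 0.07. None of these shares of non-overlapping genes was read as a result about a class where it was near the 7.12% above and 6.53% below of all genes.

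Of the called genes 7 were in none of the classes, S100a8 among them. Cyp2c53-ps, a transcribed pseudogene of the Cyp2c cluster, had 2, 0 and 2 counts in WT and 48, 102 and 27 in hCAR/hPXR mice, a ratio of 40.2 (95% counting interval 15.4 to 149). Its annotated span (chr19:39229254-39274985) overlaps that of Cyp2c29, so reads there are uncertain. All Car KO/hPXR libraries were at 0 for it. Gdf15, a secreted stress factor that lowers appetite, had 0, 2 and 4 counts in WT and 36, 16 and 15 in hCAR/hPXR mice, a ratio of 10.1 (4.42 to 28.6). Its log2 fold change was 3.24, and 4.18 without WT CITCO replicate 3. The hCAR/hPXR libraries, at 18.7, 9.26 and 12.5 CPM, lay close to corn oil mice (14.3, 7.05 and 10.9 CPM), and the WT CITCO libraries lay below both groups. WT CITCO over corn oil mice had a log2 difference of -2.93 for Gdf15, which was not called (adjusted p = 0.0586, edgeR). The scaffold gene Frmd4b had the same order, at 11.7, 9.68 and 13.4 CPM in WT, 30.6, 27.2 and 26.7 CPM in hCAR/hPXR and 36.3, 33.1 and 37.4 CPM in corn oil mice. Zfp207, a zinc finger protein of the spindle, rose from 22.7, 23.5 and 24.6 CPM to 43.5, 49.2 and 46.7 CPM. The non-coding Gm26809 rose by 0.93 and the unclassified transcript Gm43323 fell by 1.67 on the log2 scale. The calls of Frmd4b, Zfp207, Gm26809 and Gm43323 each ended with any 1 of the 6 libraries left out, and that of Gdf15 without WT CITCO replicate 1 or 2 or hCAR/hPXR replicate 1 or 3 (adjusted p up to 0.233, edgeR). With the 6 libraries fitted alone the calls of Gdf15, Frmd4b, Zfp207 and Gm26809 were lost too, with the replicate block those of Zfp207 and Gm26809, and with limma on the transformed values those of Frmd4b, Zfp207, Gm26809 and Gm43323. Gm26809 also lost its call with the size factors of DESeq2.

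Markers of the cells that liver holds were compared last. The 9 hepatocyte markers were all tested with 0 calls, Trf most abundant, and summed to 48741, 56244 and 56738 CPM in WT and 40175, 40474 and 59474 CPM in hCAR/hPXR mice. The 12 Kupffer cell and macrophage markers, led by Cd5l, summed to 581, 574 and 418 CPM in WT and 642, 567 and 542 CPM in hCAR/hPXR mice. Endothelial markers (11, led by Kdr) summed to 328, 419.0 and 382 CPM and 314, 371 and 335 CPM. Stellate cell and fibroblast markers (11, led by Dcn) summed to 299.7, 279 and 403 CPM and 323, 285 and 295 CPM. These sums overlapped between groups, and none of their markers was called. The 8 erythroid markers, led by Hba-a2, summed to 3037, 4003 and 1997 CPM in WT and 2004, 1866 and 2199 CPM in hCAR/hPXR mice, overlapping through WT CITCO replicate 3. The 6 erythroid markers tested all had a negative fold change (median -0.58), and 0 were called. Cholangiocyte markers (8, led by Sox9, Krt7 at 0) summed to 22.1, 14.5 and 12.7 CPM and 18.7, 16.8 and 20.9 CPM. Lymphocyte markers (12, led by Ighm) summed to 11.03, 9.68 and 18.3 CPM and 13.5, 10.4 and 19.2 CPM. Ighm, the only one tested, was above WT in every library without a call, at 4, 5 and 3 against 15, 6 and 12 counts. Adipocyte and pancreas markers (9, led by Cela1, 5 of them at 0) summed to 21.4, 20.7 and 17.6 CPM and 13.99, 21.4 and 10.0 CPM. The part of cell composition in the other differences was not tested.

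The number of calls was sensitive to single libraries: 35 genes became 17 without WT CITCO replicate 1, 23 without WT CITCO replicate 2 and 20 without hCAR/hPXR replicate 3. Without WT CITCO replicate 3 there were 28 calls, of which 19 were among the 35, and calls of higher genes went from 22 to 11. Without hCAR/hPXR replicate 1, 13 genes were called higher. Calls of Cish, Cxcl1, Cyp2b10, Cyp2c29, Cyp2c53-ps, Cyp3a11, Gstm3, Hhex, Igfbp1, Nr1i2, Nr1i3 and Onecut1 held in all alternative fits. For any single gene the smallest p-value that an exact permutation test of 3 mice against 3 can give is 0.1, two-sided, so that each call rests on the spread shared across genes in the fit.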

How the data were processed

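Liver RNA of 12 mice was measured by 3' RNA sequencing. The authors trimmed reads with Trimmomatic, aligned them with STAR 2.5.2 and estimated expected counts per gene with RSEM 1.3 on GRCm38, and they deposited these without normalisation for 51912 genes. A further table that was deposited by the authors is on a scale like log2, made by DESeq2's variance-stabilising transformation, for 17859 genes. Groups were taken from the labels. The expected counts were rounded and fitted in R 4.3.3 with edgeR 4.0.16 (TMM, filterByExpr, 1 mean per group over all 12 libraries, quasi-likelihood test, Benjamini-Hochberg adjustment over 8594 genes). The standard error is the log2 fold change over the root of F. The scripts were tested on simulated data. Groups at 0 were set to a floor of 3 counts over the group, and ratios of groups with 10 counts or fewer carry exact binomial intervals at 95%. Symbols and coordinates come from the deposited table and GENCODE M21, and promoter windows from RefSeq.

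Members and lists were chosen with earlier results of these data known, so classes have no test. Genes named are the receptors, called members, the most abundant member and up to 3 with the lowest p in each class, called genes outside the classes, and 8 readouts of CAR (Glul, Meg3, Mki67, Pcna, Pck1, G6pc, Gadd45b and Ccnd1). Alternatives were DESeq2 1.42.0 (size factors, Wald test), a fit of 6 libraries, different count filters, a replicate block, each library left out, and limma 3.58.1 on the transformed values.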

Additional observations from a re-analysis of the deposited data

Results flagged for a closer look

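For the genes below the difference from WT CITCO mice was not the same in hCAR/hPXR as in Car KO/hPXR mice. Both genotypes carry human PXR, and they differ in human CAR against no CAR. Both differences subtract the same WT mice, so the test of their difference is the contrast of hCAR/hPXR over Car KO/hPXR mice, in which 50 of 8594 genes were called (0.582%). The values are log2 differences from that contrast, limited to genes also called against WT CITCO mice, and the comparisons share the hCAR/hPXR libraries.

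Among P450s the difference was 7.16 for Cyp2b10, 2.36 for Cyp2c29, 3.86 for Cyp2c55 and 8.79 for Cyp2c53-ps, whose Car KO/hPXR libraries were all at 0, so that the last value depends on the fit and is no bound. Car KO/hPXR mice had 1, 0 and 3 counts of Cyp2b10 and 2, 4 and 0 of Cyp2c55. The values of these genes thus rest on few counts and carry no counting interval. Inflammation genes gave 2.01 for Cxcl1, 2.16 for S100a8 and 1.51 for Saa4. The metallothioneins gave 3.03 for Mt1 and 3.68 for Mt2, and the non-coding Gm26809 gave 0.99. Genes that were lower with human CAR than without CAR were Cish at -2.33, Rdh16 at -1.46, Foxa2 at -1.10 and Apol7a at -0.95. The calls of Gm26809, Saa4 and Rdh16 against WT were lost in most alternative fits. Of the 6 fits against WT that leave out a library, the calls of Mt1 and Mt2 ended in 5. Those of Cyp2c55 and Apol7a ended in 4 and that of S100a8 in 3. How far single calls held against Car KO/hPXR mice was not examined. Of the 50 calls in that contrast 9 remained without Car KO/hPXR replicate 3 and 16 without Car KO/hPXR replicate 1. Of the 35 genes called against WT CITCO mice these 14 passed this test and 21 did not, which does not show that the 21 were equal. Among those that did not pass were the Cyp3a genes, with log2 differences of 1.03 for Cyp3a11 (adjusted p = 0.0673, edgeR), 0.27 for Cyp3a25 and 0.17 for Cyp3a59. Gstm3 (1.35, adjusted p = 0.103, edgeR) and Igfbp1 (1.25, adjusted p = 0.121, edgeR) did not pass either. Nor did Hhex (-1.08, adjusted p = 0.274, edgeR) or Onecut1 (-0.66, adjusted p = 0.487, edgeR).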

How the results depend on the processing

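Calls of hCAR/hPXR over WT CITCO mice numbered 35 (22 higher, 13 lower). DESeq2's Wald test gave 64, with 33 lower, and no filter on low counts gave 184, with 102 higher and 82 lower. Leaving out 1 library gave from 17 to 32 calls, from 9 to 20 higher and from 8 to 17 lower. The share of calls that were higher went from 62.9% to 48.4% with DESeq2 and to 39.3% without WT CITCO replicate 3. Against Car KO/hPXR mice the count of 50 became 99 with DESeq2 and 233 without the filter, alternatives chosen after seeing the data, and from 10 (without Car KO/hPXR replicate 3) to 58 with 1 library left out. It was 23 without hCAR/hPXR replicate 1, 19 without hCAR/hPXR replicate 3 and 19 without Car KO/hPXR replicate 1. The causes were not tested.

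The replicate block gave 33 calls (21 higher, 12 lower) and 53 against Car KO/hPXR mice, and same-numbered libraries did not deviate together (correlations 0.025, 0.0085 and 0.034). Of 165 named genes the 35 called kept their sign throughout, and 19 of the 130 others changed sign in some fit. DESeq2's Wald test called 18 of those 130. Of 38 class medians 14 changed sign in some fit. Depths from 1167008 to 2012805 counts left many low genes untested.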
